A study of Mus musculus with 6 samples.

Results

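Secreted Wnt antagonists are extracellular proteins that limit Wnt signaling, and 10 of their genes, Sfrp1, Sfrp2, Sfrp4, Sfrp5, Frzb, Wif1, Dkk1, Dkk2, Dkk3 and Dkk4, were examined in sorted cells of the neonatal mouse prostate. They were taken as every probe carrying one of these gene names in the scanner files, which gave 10 probes, 1 for each gene, among 55681 probes and 36282 gene names. The cells came from untreated 6-day-old (P6) male FVB/N mice of the Tg 11.5kb-GFP line, in which the s-SHIP promoter drives GFP. Lin- Sca-1+ CD49f+ (LSC) cells, the basal/stem fraction that lacks the lineage markers Ter119, CD31 and CD45, were sorted into LSC GFP+ and LSC GFP- cells, so both groups carried the transgene and differed in the activity of the reporter. Each group had 3 independent samples. RNA of each sample was amplified to cDNA, which was Cy3-labeled and hybridized to 1 single-colour array. The groups are limited as a model in that a promoter reporter defines them, that the same reporter is also active in vascular smooth muscle cells of these mice, and that the number of mice behind each sample is not given in the sources used here.

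Wnt ligands bind Frizzled receptors together with the co-receptors Lrp5 and Lrp6 and stabilize beta-catenin, which drives target genes with TCF/LEF factors. Secreted Frizzled-related proteins (Sfrp1, Sfrp2, Sfrp4, Sfrp5 and Frzb) carry a Frizzled-like domain and bind Wnts outside the cell, and Wnt inhibitory factor 1 (Wif1) binds Wnts through a different domain. Dickkopf proteins Dkk1, Dkk2 and Dkk4 instead bind the co-receptors, with Kremen proteins as further receptors, whereas Dkk3 is a divergent member of that family. In the developing prostate such factors are exchanged between epithelium and mesenchyme.

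Every level below is a log2 signal relative to the 75th percentile of its array, so that 0 stands for that percentile, and every difference is LSC GFP+ minus LSC GFP- cells on the log2 scale. Probes differ in how well they hybridize, so levels were compared between arrays and never between genes. Before adjustment, at a p under 0.05 in limma, Wif1 and Sfrp2 were higher and Sfrp1 was lower in LSC GFP+ cells, and Dkk2 was above background on LSC GFP- arrays alone. Sfrp4, Sfrp5, Dkk3 and Dkk4 were measured on all 6 arrays and did not pass that threshold, and Dkk1 and Frzb were mostly or wholly below background.

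The probes of Wif1, Sfrp2 and Sfrp1, which passed the unadjusted threshold, and of Dkk2, which was not tested, are shown. Each gene rests on a single probe. The stretches are the first 30 of the 60 bases of each probe, 5′ to 3′, as the scanner files give them, with positions in mm9 from the same files. The exon or UTR that a probe covers was not assigned here.
Wif1, chr10:120537079-120537138, plus strand: ggctgatatctactcttccttttaggtttt
Sfrp2, chr3:83577864-83577923, plus strand: tcggcatctaagtcttcaaacatttcgttg
Sfrp1, chr8:24559438-24559497, plus strand: ttaaaatagtcattccggagagtcagggaa
Dkk2, chr3:131842357-131842416, plus strand: tcagagtgatgatgtcatcagaagtttata

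Promoter sequence of RefSeq (assembly GRCm38.p6) was at hand for Wif1, Sfrp2, Sfrp5, Frzb, Dkk1 and Dkk2, 6 of the 10 genes, and not for Sfrp1, Sfrp4, Dkk3 and Dkk4. Since Wnt antagonist genes can themselves be Wnt targets, the 250 bases before each gene start were searched on both strands for the TCF/LEF core CTTTGAA or CTTTGAT or CTTTGTA or CTTTGTT. Capitals mark a match to this core. Wif1 and Sfrp2 are shown as genes that passed the unadjusted threshold, and Dkk1 as the only one of the 6 with a match. Dkk2 is shown as an untested gene that was above background on 2 of 3 LSC GFP- arrays and on no LSC GFP+ array.
Wif1, chr10:121033754-121034003, plus strand: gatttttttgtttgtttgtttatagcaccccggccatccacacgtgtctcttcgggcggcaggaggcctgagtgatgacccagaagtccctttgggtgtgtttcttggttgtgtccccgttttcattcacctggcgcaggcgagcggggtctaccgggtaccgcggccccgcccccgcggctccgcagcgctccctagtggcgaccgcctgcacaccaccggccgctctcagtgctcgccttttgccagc
Sfrp2, chr3:83766071-83766320, plus strand: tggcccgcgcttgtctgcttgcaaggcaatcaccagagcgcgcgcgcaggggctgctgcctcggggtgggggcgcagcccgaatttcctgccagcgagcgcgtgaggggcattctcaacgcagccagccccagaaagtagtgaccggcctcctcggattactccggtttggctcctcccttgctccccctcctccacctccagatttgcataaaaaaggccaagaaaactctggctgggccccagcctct
Dkk2, chr3:132085042-132085291, plus strand: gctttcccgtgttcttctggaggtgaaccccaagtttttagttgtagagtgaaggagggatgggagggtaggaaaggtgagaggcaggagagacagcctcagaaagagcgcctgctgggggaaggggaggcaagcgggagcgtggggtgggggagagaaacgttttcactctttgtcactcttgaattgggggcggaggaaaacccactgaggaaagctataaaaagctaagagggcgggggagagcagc
Dkk1, chr19:30549497-30549746, minus strand: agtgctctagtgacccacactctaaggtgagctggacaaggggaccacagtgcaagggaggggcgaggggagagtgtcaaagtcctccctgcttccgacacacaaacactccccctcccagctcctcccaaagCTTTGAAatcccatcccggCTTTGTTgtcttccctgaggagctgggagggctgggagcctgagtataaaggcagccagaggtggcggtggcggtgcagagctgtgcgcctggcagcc
The Dkk1 window held CTTTGAA with its first base at -117 and CTTTGTT with its first base at -98 from the gene start. Such a match was found in 4874 of 32851 windows of this length, or 14.8%, and it is a description of letters and not a binding site. The windows of Wif1, Sfrp2, Dkk2, Sfrp5 and Frzb held none of these letters. Wif1 had 21 CpG dinucleotides in its window, Sfrp2 16, Frzb 16, Sfrp5 13, Dkk2 7 and Dkk1 6, against a median of 6 over all windows. GC content ran from 55.6% for Dkk2 to 64.4% for Frzb, above the median of 52.4% over all windows.

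Testing required that a probe be well above background on every array of 1 group or of both, which held for 7 of the 10 antagonists, and these 7 were above background on all 6 arrays. Before adjustment, at a p under 0.05 in limma, 2 of the 7 were higher and 1 was lower in LSC GFP+ cells. Over all 37005 probes tested, 7.90% passed in either direction, 3.38% higher and 4.53% lower. After Benjamini-Hochberg adjustment over all of these probes 0 antagonists passed 0.05, as did 1 probe of the whole array (0.0027%), and the methods' t-test called 0 probes after adjustment. The groups did not overlap for 2 of the 7 antagonists, Wif1 and Sfrp1, and for 12.3% of all probes tested. The study names Sfrp1 and Wif1 from these same arrays, so their counts are not independent evidence of a direction. For Wif1 the study also reports protein staining of prostate sections of the same age, stronger in GFP+ than in GFP- cells of the buds. Among the 7 the median difference was 0.24, against a median of -0.004 over all probes tested.

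**Figure D1:**
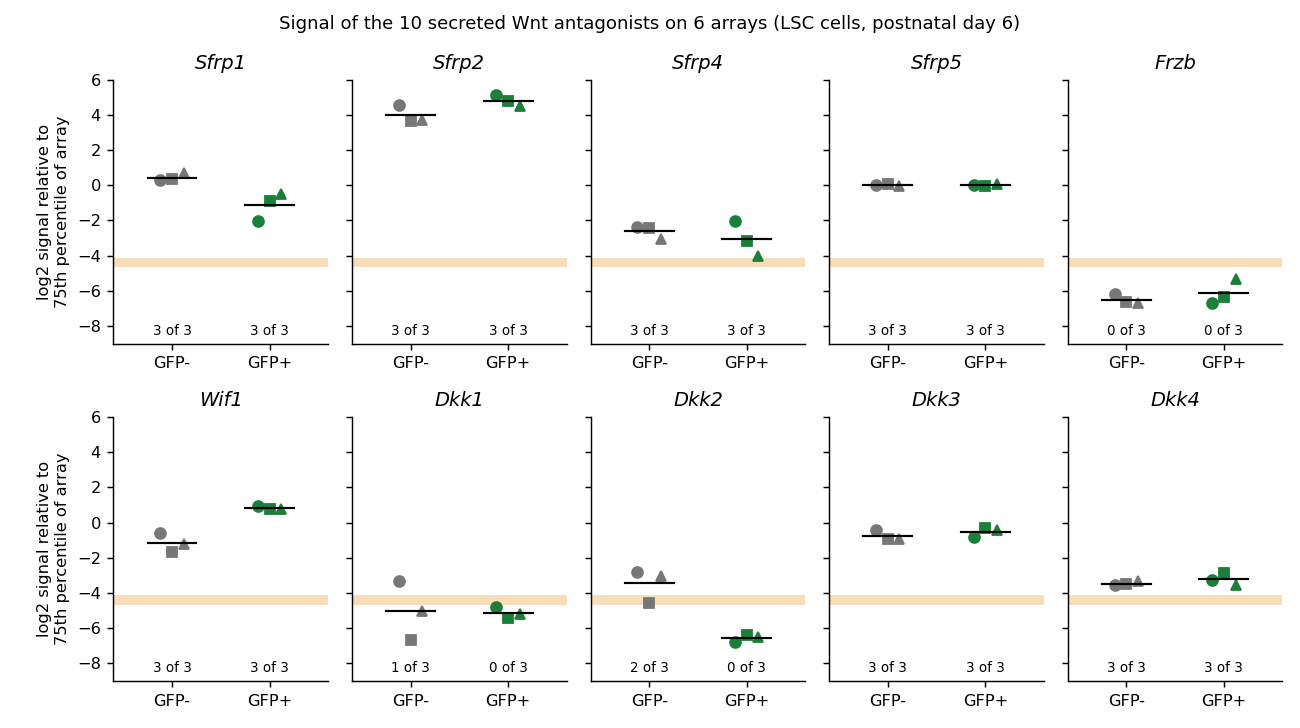
Log2 signal relative to the 75th percentile of the array (vertical axis) of each antagonist in LSC GFP- (grey) and LSC GFP+ (green) cells, with circles, squares and triangles for replicates 1, 2 and 3, a black line at the group mean and, below, the number of the 3 arrays on which the probe was well above background. The orange band spans the lowest signals that were well above background on the 6 arrays, from -4.66 to -4.14. Wif1 and Sfrp1 separated the groups above the band, the LSC GFP+ values of Dkk2 all lay under it, and levels of different genes cannot be compared.

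Among the secreted Frizzled-related proteins, Sfrp1 and Sfrp2 differed in opposite directions. Sfrp1, which can both sequester Wnts and bind Frizzleds, had levels of -2.03, -0.89 and -0.48 in LSC GFP+ replicates 1, 2 and 3 and of 0.30, 0.33 and 0.69 in LSC GFP- replicates 1, 2 and 3. All LSC GFP+ values lay under all LSC GFP- values, and LSC GFP+ replicate 1 was the farthest below. The means were -1.14 ± 0.80 and 0.44 ± 0.22 (SD, n = 3 each), and the difference of -1.57 (standard error 0.38, 95% interval -2.46 to -0.69) had an unadjusted p of 0.00358 and an adjusted p of 0.228 in limma. Sfrp1 was thus 2.98-fold lower in LSC GFP+ cells. Without LSC GFP+ replicate 1 the difference was -1.12 and without LSC GFP+ replicate 3 it was -1.90, both at an unadjusted p under 0.05.

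Sfrp2, a relative of Sfrp1 made by mesenchyme in many developing organs, gave 5.12, 4.80 and 4.53 in LSC GFP+ cells and 4.58, 3.65 and 3.70 in LSC GFP- cells. The groups overlapped, because LSC GFP- replicate 1 lay just above LSC GFP+ replicate 3. The means were 4.82 ± 0.30 and 3.98 ± 0.52 (SD, n = 3 each), and the difference of 0.84 (standard error 0.30, 95% interval 0.14 to 1.54) had an unadjusted p of 0.0244 and an adjusted p of 0.483 in limma. Sfrp2 was thus 1.79-fold higher in LSC GFP+ cells. The difference stayed between 0.68 and 1.14 with any 1 array left out, while the unadjusted p from limma rose to 0.0762 without LSC GFP+ replicate 1, 0.0575 without LSC GFP+ replicate 2, 0.0869 without LSC GFP- replicate 2 and 0.0775 without LSC GFP- replicate 3. Those fits gave 0.69, 0.85, 0.68 and 0.70.

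Sfrp4, another Frizzled-related protein, had levels of -2.02, -3.17 and -4.02 in LSC GFP+ cells and of -2.37, -2.43 and -3.04 in LSC GFP- cells. The groups overlapped, with LSC GFP+ replicate 1 the highest of all 6 arrays and LSC GFP+ replicate 3 the lowest. The difference of -0.46 (95% interval -1.55 to 0.64) had an unadjusted p of 0.363 in limma. Single arrays decided this value: it was -0.98 at an unadjusted p of 0.0233 in limma without LSC GFP+ replicate 1, and 0.02 without LSC GFP+ replicate 3.

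Sfrp5 varied least of the 7 tested antagonists. Its levels were 0.04, -0.03 and 0.10 in LSC GFP+ cells and 0.02, 0.06 and -0.04 in LSC GFP- cells, fully intermixed. The difference of 0.02 had a 95% interval of -0.39 to 0.43 and an unadjusted p of 0.908 in limma. Frzb, also known as Sfrp3, was not well above background on any of the 6 arrays, with levels between -6.71 and -5.32, and no fold is given for it.

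Wif1 showed the smallest p of the 7 tested antagonists. Its levels were 0.92, 0.77 and 0.76 in LSC GFP+ cells and -0.58, -1.66 and -1.23 in LSC GFP- cells. The 3 LSC GFP+ samples lay close together and above every LSC GFP- sample, of which replicate 1 was the highest. The means were 0.81 ± 0.089 and -1.16 ± 0.54 (SD, n = 3 each), and the difference of 1.97 (standard error 0.29, 95% interval 1.31 to 2.63) had an unadjusted p of 0.000133 and an adjusted p of 0.0899 in limma. Wif1 was 3.92-fold higher in LSC GFP+ cells and ranked 54 by p among the 37005 probes tested, while Sfrp1 ranked 581.

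**Figure D2:**
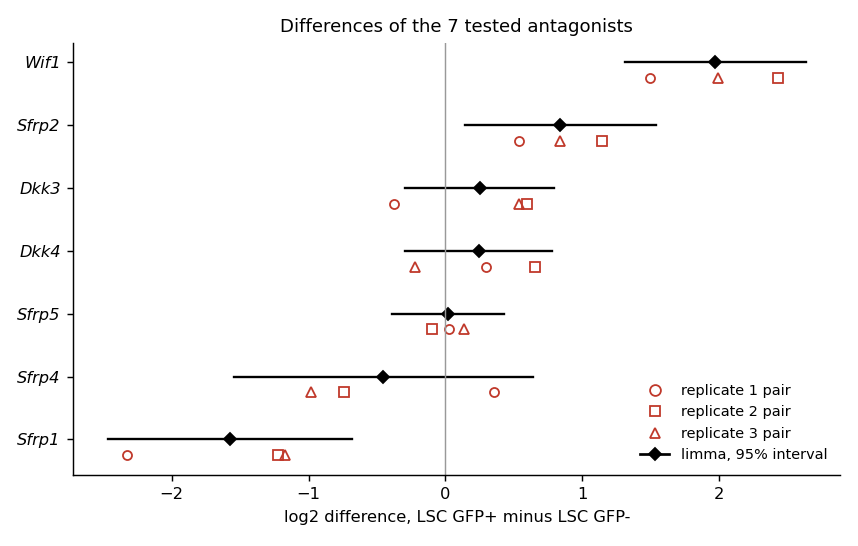
Log2 difference between LSC GFP+ and LSC GFP- cells (horizontal axis) for the 7 tested antagonists, with limma's estimate and 95% interval in black and the difference within each pair of samples of the same replicate number in red. The intervals of Wif1, Sfrp2 and Sfrp1 do not reach 0, and all 3 pairs of each of these genes lie on the same side.

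Samples with the same replicate number deviated together, least so for replicate 2, so differences within a number were also read. They were 1.50, 2.43 and 1.99 for Wif1 in pairs 1, 2 and 3, all higher in LSC GFP+ cells. Sfrp2 gave 0.54, 1.14 and 0.83, also higher in 3 of 3 pairs although its groups overlapped. Sfrp1 gave -2.33, -1.22 and -1.17, lower in 3 of 3 pairs. The pairs of Sfrp4, at 0.35, -0.74 and -0.98, did not share a direction.

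Of the Dickkopf genes, Dkk2 alone separated the groups, and it did so at the limit of detection. Dkk2, which binds the Wnt co-receptors and depends on Kremen for its inhibitory action, was not well above background on any LSC GFP+ array, where the scanner software had put substitute values of -6.78, -6.41 and -6.53. In LSC GFP- cells it read -2.80, -4.55 and -3.03 and was well above background on 2 of 3 arrays, all but replicate 2. The processed signals behind these levels were 57.5, 17.4 and 51.7 in LSC GFP- cells and 3.63, 5.83 and 4.46 in LSC GFP+ cells. Because Dkk2 was not above background on all arrays of a group it was not tested. Each LSC GFP+ array was then set at a floor, its lowest signal well above background over all probes, with a mean of -4.42. Against the LSC GFP- mean of -3.46, this gave a 1.94-fold higher Dkk2 in LSC GFP- cells. It is no strict bound, because this floor is not the limit of the Dkk2 probe. On LSC GFP- replicate 2 Dkk2 read -4.55, over that array's lowest such signal of -4.57, and was not well above background. That reading is also part of the LSC GFP- mean. This floor-based difference of 0.96 on the log2 scale was 0.63 without LSC GFP- replicate 1, 0.74 without LSC GFP- replicate 3 and 1.51 without LSC GFP- replicate 2. In the last case Dkk2 passed the filter only because the LSC GFP- array on which it was not above background was left out. Its fitted difference of -3.66 rests on the substitute values and is no bound. The adjusted p of 0.0241 in limma follows from that choice of arrays and those values, and is not read as a result.

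Dkk1, the best known inhibitor of Lrp5 and Lrp6, was well above background on 1 of 6 arrays, LSC GFP- replicate 1 at -3.34. The other LSC GFP- arrays read -6.67 and -5.01 and the LSC GFP+ arrays -4.77, -5.41 and -5.19. Most of these values had no order, and no fold is given.

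Dkk3 was measured on all arrays at -0.80, -0.32 and -0.40 in LSC GFP+ cells and -0.42, -0.91 and -0.93 in LSC GFP- cells. The groups overlapped, since LSC GFP+ replicate 1 fell among the LSC GFP- values. The difference of 0.25 (95% interval -0.30 to 0.80) had an unadjusted p of 0.320 in limma, and its pairs were -0.38, 0.59 and 0.54. Dkk4, an inhibitor that is itself induced by Wnt signals in several tissues, read -3.26, -2.85 and -3.56 in LSC GFP+ cells and -3.56, -3.51 and -3.34 in LSC GFP- cells. These values overlapped too, with a difference of 0.24 (95% interval -0.30 to 0.78) and an unadjusted p of 0.327 in limma. The intervals of Dkk3 and Dkk4 leave room for a change of either sign.

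The receptors and co-receptors on which these antagonists act were read from the same fit, at the brightest probe of each gene. All 10 Frizzled genes were tested, 4 rose in LSC GFP+ cells (Fzd9 by 1.78, Fzd10 by 0.81, Fzd1 by 0.70 and Fzd7 by 0.57) and 0 fell at a p under 0.05 before adjustment in limma, with a median difference of 0.48. All 10 were above background on every LSC GFP+ array, and 9 on every LSC GFP- array. Fzd9 averaged -4.04 in LSC GFP- cells, near background, and passed the filter only through the group where it was high. Its difference thus rests on dim signal. Of 6 Dickkopf receptors and Wnt co-receptors, Kremen2 rose by 1.15 and Lrp4 by 0.63 and 0 fell. Kremen2, at a mean of -3.60 in LSC GFP- cells, likewise passed the filter only through LSC GFP+ cells. The median of these genes was 0.20, and 0.04 with a filter on all 6 arrays. Lrp5 and Lrp6, which Dkk1, Dkk2 and Dkk4 bind, had differences of -0.04 and 0.04 at unadjusted p of 0.853 and 0.862 in limma.

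Of 19 Wnt ligands, 14 were tested, Wnt10b rose by 1.40 and Wnt2b fell by 0.90, and the median difference was -0.13. Among 15 further extracellular modulators, 8 were tested. Apcdd1 and Igfbp4 rose by 0.83 and 1.31, while the agonist Rspo3 and the Lrp-binding antagonist Sostdc1 fell by 1.61 and 1.38. Rspo3 averaged -4.00 in LSC GFP+ cells, near background, so its difference rests on dim signal. In this list 7 genes were above background on every LSC GFP+ array and 7 on every LSC GFP- array. Of 16 Wnt/beta-catenin target genes 15 were tested, 11 rose and 0 fell, with a median difference of 0.69. The 4 that did not pass were Axin2, Nkd1, Sox9 and Ascl2, at 0.16, 0.10, 0.47 and 0.04. Edar, among those that rose, averaged -4.22 in LSC GFP- cells, near background, so its difference rests on dim signal. Of the target genes, 14 were above background on every LSC GFP+ array and 14 on every LSC GFP- array. The lists were written with earlier results of these arrays known, some of their genes are named by the study from the same samples, and their counts describe these arrays only.

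**Figure D3:**
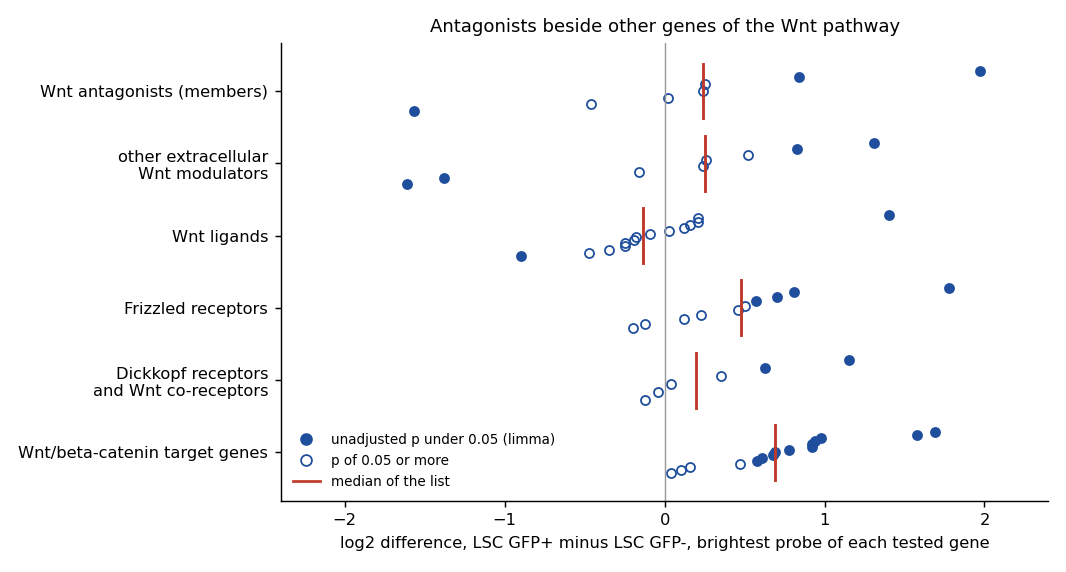
Log2 difference between LSC GFP+ and LSC GFP- cells (horizontal axis) for each tested gene of 6 lists of the Wnt pathway, at its brightest probe, filled at an unadjusted p under 0.05 in limma and open otherwise, with a red line at the median of each list. The antagonists and the other extracellular modulators have filled points on both sides of 0, and the Frizzled receptors and target genes on the right side alone.

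Some markers of other cells moved with the groups. Since the arrays measured bulk RNA, fewer cells of a type and less RNA per cell cannot be told apart. Basal epithelial markers were above background on all 6 arrays for 10 of 10 genes, with a sum of linear levels, in units of the array's 75th percentile, of 231 to 248 in LSC GFP+ and 173 to 183 in LSC GFP- cells, and 6 rose and 0 fell. The defining basal markers Krt5, Krt14 and Trp63 were thus present in both groups. All 8 smooth muscle markers were above background on every array, 7 fell and 0 rose, and their summed level was 8.50 to 13.5 in LSC GFP+ and 26.6 to 53.7 in LSC GFP- cells. Acta2 and Myh11, which define that cell type, had differences of -2.13 and -2.01. Of 11 stromal fibroblast markers 10 were tested. Of these, 5 fell, among them Col1a1 at -2.18 and Pdgfra at -2.36, and 2 rose, Dcn by 1.19 and Fbln1 by 0.90. The sums of this list were 25.3 to 32.2 in LSC GFP+ and 24.9 to 66.4 in LSC GFP- cells. Pdgfra averaged -3.61 in LSC GFP+ cells, near background, so its difference rests on dim signal. In this list 9 genes were above background on every LSC GFP+ array and 10 on every LSC GFP- array. Seminal vesicle and Wolffian duct markers, 3 of 6 tested genes of which fell, summed to 3.31 to 8.56 in LSC GFP+ and 7.53 to 17.9 in LSC GFP- cells. Svs5, among those that fell, averaged -4.07 in LSC GFP+ cells, near background. In this list 5 genes were above background on every LSC GFP+ array and 6 on every LSC GFP- array. Of 4 tested endothelial markers Vwf fell by 0.82, and 0 of 5 tested immune and 0 of 4 tested glial and neuronal markers passed.

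Sfrp1 was thus lower, and Dkk2 read lower on substitute values, in the group with the lower smooth muscle sums. Wif1 and Sfrp2 were higher in that group. The stromal fibroblast sums overlapped between the groups, with markers that rose and markers that fell. The seminal vesicle and Wolffian duct sums overlapped as well. The part of these other cells in the levels of Sfrp1, Dkk2, Wif1 and Sfrp2 was not tested. On replicates 1, 2 and 3 the smooth muscle sums were 13.5, 8.50 and 13.2 in LSC GFP+ and 53.7, 26.6 and 31.97 in LSC GFP- cells. The seminal vesicle and Wolffian duct sums were 3.31, 6.19 and 8.56 in LSC GFP+ and 7.53, 14.6 and 17.9 in LSC GFP- cells.

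**Figure D4:**
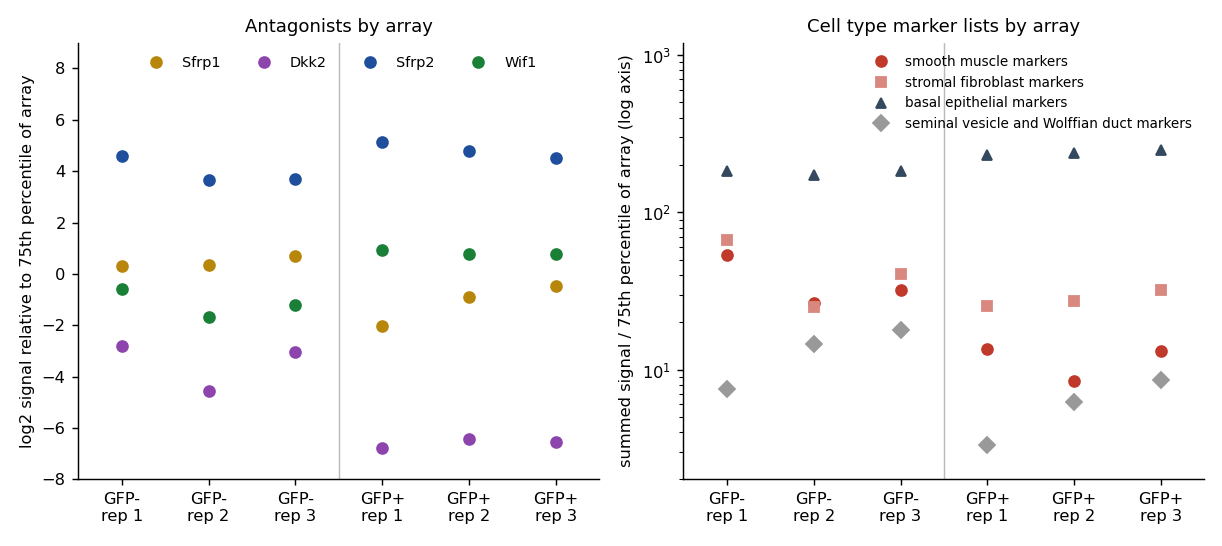
Left, log2 level of Sfrp1, Sfrp2, Wif1 and Dkk2 relative to the 75th percentile of each of the 6 arrays. Right, the sum of linear levels over 4 lists of cell type markers on the same arrays, in units of the array's 75th percentile on a log axis. Smooth muscle sums (circles) lay between 26.6 and 53.7 on LSC GFP- arrays and between 8.50 and 13.5 on LSC GFP+ arrays.

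For each antagonist that passed the unadjusted threshold, the 3 genes with the most similar pattern over the 6 arrays were found among 18275 probes above background on every array. Ccdc80 (Pearson r = 0.996), Osbpl1a (0.994) and Glis3 (0.993) were most like Sfrp1, with differences of -1.28, -0.53 and -1.08. Hoxa6 (0.995), Cacnb2 (0.988) and Fbxo30 (0.987) were most like Sfrp2, with differences of 0.53, 1.18 and 0.33. Gadd45a, Gpc4 and Ust (0.993 each) were most like Wif1, with differences of 0.63, 1.08 and 1.14. These are the highest of many correlations over 6 points that share 2 groups and 1 slide, given as a description.

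**Figure D5:**
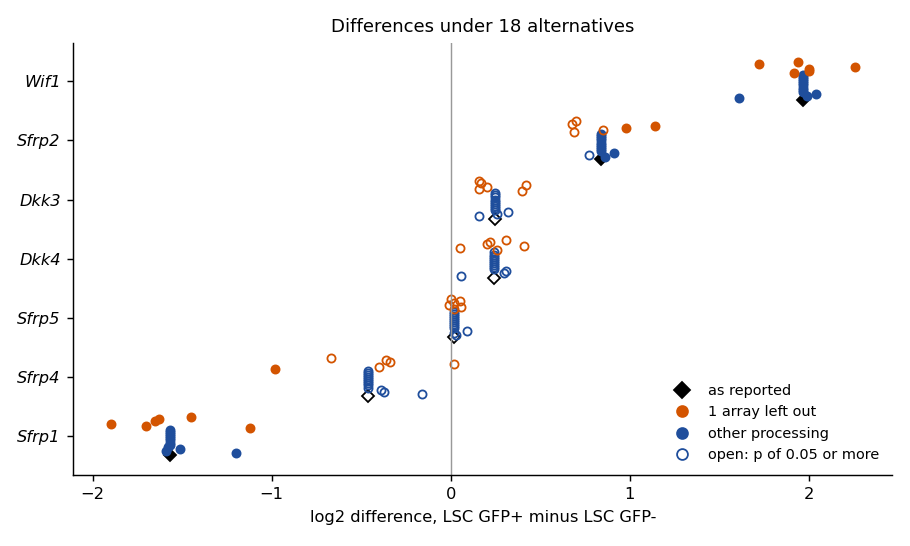
Log2 difference between LSC GFP+ and LSC GFP- cells (horizontal axis) for the 7 tested antagonists as reported (black diamonds), with 1 array left out (orange) and under other processing (blue), filled at an unadjusted p under 0.05 and open otherwise. Wif1 stayed between 1.61 and 2.26 and Sfrp1 between -1.90 and -1.12 with every point filled, and Sfrp2 stayed between 0.68 and 1.14 with filled and open points.

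Across 18 alternatives in processing or in the arrays kept, Wif1 and Sfrp1 passed an unadjusted p of 0.05 in all 18 and Sfrp2 in 12. The adjusted p ran from 0.0548 to 0.383 for Wif1, from 0.106 to 0.587 for Sfrp1 and from 0.130 to 0.963 for Sfrp2, from limma or the methods' t-test.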

How the data were processed

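RNA of 3 LSC GFP+ and 3 LSC GFP- samples was measured on SurePrint G3 Mouse arrays of 1 slide and 1 scan. Per the file headers, Feature Extraction 11.0.1.1 produced the deposited intensity values, on the linear scale, background-subtracted, detrended, with substitute values where a spot was dim, and not normalized between arrays. The submitters' processing notes name version 10.7.3.1. The deposited table of the whole series holds the same intensity values rounded. Between 36651 and 42123 probes per array were well above background and 0 spots were saturated.

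The log2 signal minus the array's 75th percentile was used, and outlier spots (123 to 154 per array, none of the antagonists) were left out. The test was limma 3.58.1 (R 4.3.3; lmFit, eBayes; two-sided), with Benjamini-Hochberg adjustment over all 37005 probes tested, and the script was tested on simulated data. For Dkk2, below background on all LSC GFP+ arrays, a difference was estimated with those arrays set at their lowest signal well above background. The number of arrays limits the precision, and the smallest exact two-sided permutation p of 3 against 3 arrays is 0.1. The study's methods name no scaling, filter or correction for the arrays. Its results mention that probes were filtered, without giving the rule.

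All 10 antagonists are named, other lists are given by counts with the genes that passed named where few, and the 3 most similar genes are given for each antagonist that passed. The members and lists were chosen with earlier results of these data known. The replicate numbers come from the labels. Deviations from the group means correlated across probes at 0.43, 0.28 and 0.67 for replicates 1, 2 and 3. Between samples of different numbers the correlations ran from -0.55 to 0.22. Same-numbered samples were therefore read as pairs beside the reported fit and in the replicate block. The reported fit itself was unpaired. Alternatives were quantile normalization, normexp correction (offset 50), array median scaling, the rounded table, 3 other filters for dim signals, an intensity trend, the methods' t-test, the replicate block, 2 rules for genes with several probes, and each array left out in turn. The result of 1 marker list is not reported here.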

Additional observations from a re-analysis of the deposited data

How the results depend on the processing

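Wif1, Sfrp1 and Sfrp2 kept their direction under all 18 alternatives, and Wif1 and Sfrp1 also kept an unadjusted p under 0.05. The 2 rules for genes with several probes could not change these genes, each of which has 1 probe. With 1 array left out the differences ran from 1.72 to 2.26 for Wif1, from -1.90 to -1.12 for Sfrp1 and from 0.68 to 1.14 for Sfrp2. Sfrp2 lost the threshold under quantile normalization, at 0.77, and in the methods' t-test, at 0.84, beside the 4 arrays named with it. Sfrp4 turned to 0.02 and Sfrp5 to -0.01 without LSC GFP+ replicate 3, and Sfrp5 was at 0 when rounded without LSC GFP- replicate 3. Over all arrays left out, Sfrp4 ran from -0.98 to 0.02 and Sfrp5 from -0.01 to 0.06. The cause was not tested. The antagonists that passed numbered 3 as reported and 2 to 4 over the alternatives, from 2 to 3 with 1 array left out. The genes behind these counts changed. Dkk2 entered on its substitute values without the filter on dim probes and with a filter on at least 1 array, where 4 passed. It also entered without LSC GFP- replicate 2, where Sfrp2 dropped out. That fit left out the LSC GFP- array on which Dkk2 was not above background. Its adjusted p of 0.0241 in limma is therefore not read as a result. Without LSC GFP+ replicate 1, Sfrp4 entered and Sfrp2 dropped out. With the replicate block, which pairs the samples, 5480 of all probes passed an unadjusted p under 0.05 in limma against 2925 without it, and 0 after adjustment. The block changed no call among the antagonists, and Sfrp2 had an unadjusted p of 0.00422 in limma with it. With 1 array left out, 2283 to 4061 probes passed. Of the probes that passed, 57.3% were lower in LSC GFP+ cells as reported and 46.9% under array median scaling, which moved the median of all probes to 0.065. Signal over background limits Dkk1, Dkk2 and Frzb.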
